A study of Mus musculus with 6 samples.

Results

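Chemokine ligands were followed in cultured precursor cells of the adult mouse hippocampus. They were 10 genes chosen by symbol, with earlier results of these data known. They comprised the CC ligands Ccl2, Ccl5, Ccl7, Ccl25 and Ccl27a, the CXC ligands Cxcl1, Cxcl10, Cxcl12 and Cxcl16, and the CX3C ligand Cx3cl1. They were represented by 14 of the 55681 probes on the array. The cells had been isolated from the dentate gyrus of male C57BL6/JRj mice 8 weeks old and kept as an adherent monolayer with 20 ng/ml each of EGF and bFGF, the mitogens that keep them dividing. The labels name no transgene or deletion, and the groups differed by agent: human LDL (low-density lipoprotein, the main carrier of cholesterol in blood) or saline, for 48 h. The LDL dose is 100 with a unit that the labels write in more than 1 way (ug/ml in the protocol), so the dose is uncertain. There were 3 arrays with saline and 3 with LDL, from independent experiments on different passages, all on 1 slide. The question was which transcripts of these cells differ after LDL.

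Chemokines are small secreted proteins that guide migrating cells along their concentration gradient by binding G protein-coupled receptors. The families are named for the spacing of the first cysteines of the mature protein: adjacent in CC ligands, and set apart by other residues in CXC and CX3C ligands. In the brain Cxcl12 retains and guides neural precursor cells, Cx3cl1 signals from neurons to microglia, and Ccl2, Ccl7, Cxcl1 and Cxcl10 are inducible ligands that draw monocytes, neutrophils or T cells. These inducible genes are known targets of NF-kB, the transcription factor of inflammatory signalling, and Cxcl10 also of interferon.

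The stretches upstream of the start site are shown for 3 ligands that behaved differently on these arrays: Cxcl10, brighter on every LDL array than on any saline array, Cxcl1, which no array detected above background, and Cxcl12, whose brighter probe was lower on every LDL array. Each run is the 250 bases before the start, written 5′ to 3′ on the strand of the gene, from RefSeq on GRCm38.p6: Cxcl10 at chr5:92348890-92349139 on the minus strand, Cxcl1 at chr5:90890995-90891244 on the plus strand and Cxcl12 at chr6:117168285-117168534 on the plus strand. Capitals mark matches to 5 motifs searched on both strands, which may overlap: the NF-kB consensus, the interferon-stimulated response element, the AP-1 site TGANTCA, the sterol regulatory element TCACNCCAC and the GC box GGGCGG.
Cxcl10: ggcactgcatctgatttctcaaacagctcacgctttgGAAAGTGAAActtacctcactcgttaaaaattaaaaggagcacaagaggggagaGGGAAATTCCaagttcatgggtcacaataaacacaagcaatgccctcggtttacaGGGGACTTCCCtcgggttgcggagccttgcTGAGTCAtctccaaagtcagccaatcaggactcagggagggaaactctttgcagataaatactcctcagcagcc
Cxcl1: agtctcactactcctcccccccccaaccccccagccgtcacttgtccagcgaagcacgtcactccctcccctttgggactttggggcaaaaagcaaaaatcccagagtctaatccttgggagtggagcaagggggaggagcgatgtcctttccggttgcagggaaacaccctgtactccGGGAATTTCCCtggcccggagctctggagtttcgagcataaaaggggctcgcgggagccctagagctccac
Cxcl12: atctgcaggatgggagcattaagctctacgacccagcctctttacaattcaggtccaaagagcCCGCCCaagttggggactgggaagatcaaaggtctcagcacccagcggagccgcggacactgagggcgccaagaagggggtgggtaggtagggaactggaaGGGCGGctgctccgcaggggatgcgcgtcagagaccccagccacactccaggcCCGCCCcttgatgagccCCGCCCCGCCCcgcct
The Cxcl10 window held matches to the NF-kB consensus that began 159, 104 and 103 bases before the start site, the last on both strands, an interferon element 213 bases before it and an AP-1 site 74 bases before it. The Cxcl1 window held 2 NF-kB matches that overlap, one on each strand, 71 and 70 bases before the start. The Cxcl12 window held 5 GC boxes and no match to the other 4 motifs. None of the 3 windows held the sterol element. Of all 32851 windows of this length in the table, 7.25% held an NF-kB match, 2.98% the interferon element, 6.75% the AP-1 site, 1.05% the sterol element and 32.7% a GC box. A match is a run of letters and was not tested as a binding site. The table holds no window of Ccl2, Ccl5, Ccl7 or Cxcl16. Its windows of Ccl25, Ccl27a and Cx3cl1 held 0 matches to the NF-kB, interferon or sterol motifs. Ccl25 and Ccl27a too were brighter on every LDL array than on any saline array, by their brightest probes. The 3 printed windows were picked by array values, so a link between motif and response was not tested.

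Levels are log2 signals after subtraction of each array's own 75th percentile, so that 0 is the brightness of that percentile and each unit is a doubling. They depend on the probe, and levels of different probes were not read as relative amounts of RNA. Brightness was used to choose the probe of a gene, and signals of marker genes were summed. A probe counted as detected on an array where Feature Extraction called it well above background. Of the 14 probes, 11 were detected on all 6 arrays and 2 on none, and no probe was saturated. Of the 10 genes, 8 had a probe detected on all 6 arrays, Cxcl10 was detected on 4, and Cxcl1 on none. Cxcl10 entered the comparison through its LDL arrays alone, since a probe was tested if it was detected on all 3 arrays of at least 1 group.

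The arrays themselves had 55.9% to 66.8% of probes above background, fewest on saline replicate 2 and most on saline replicate 3. Hmgcs1, the enzyme that starts cholesterol synthesis and is repressed by sterols, fell by 2.15 on the log2 scale after LDL (limma adjusted p = 0.00953). All 8 precursor cell markers tested, among them Nes and Sox2, were detected on all 6 arrays. Of 12 markers of microglia and macrophages, which are known chemokine sources, 8 were detected on all 6 arrays, Aif1 and C1qa on 1 array, and P2ry12 and Trem2 on none. The summed signal of that list, in multiples of the 75th percentile, was 21.3 to 26.4 with saline and 21.1 to 25.3 with LDL. Itgam and Csf1r, its brightest genes, carried 19.5 to 24.3 of it with saline and 19.2 to 23.6 with LDL, and the other 6 tested genes summed to 1.70 to 2.07 and 1.71 to 1.86. Of the 8 tested genes 0 passed in limma. A negative log2 fold change was seen for 6 and a positive one for 2, where 42.7% of all features had a positive one. The median of the 8 was -0.11, beside -0.031 over all features. Tmem119, a microglial membrane protein, was the 1 of the 8 with an unadjusted p under 0.05, at -0.41 (limma adjusted p = 0.508). It had LDL below saline on every array, as did 9.13% of all features. The part of these markers in the chemokine values was not tested. In such cultures fewer cells of a type and less RNA per cell cannot be told apart.

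After LDL, none of the 9 tested chemokine genes passed an adjusted p of 0.05 in limma over all 24177 features, of which 0.132% passed. Of these 4 were higher, or 0.0165% of features, and 28 lower, or 0.116%. Scaling to the array median gave 8 higher and 22 lower features, and the authors' values 9 and 27, again with 0 chemokine genes. Counts by looser criteria were taken over the 8 genes detected on all 6 arrays, since Cxcl10 was tested only through the group in which it was bright. Of these 8 genes 4 had an unadjusted p under 0.05, Ccl2, Ccl7, Ccl27a and Cxcl12, where 8.09% of the 22768 features detected on all 6 arrays reached it. The groups did not overlap for 5 of the 8, with LDL above saline for Ccl2, Ccl7, Ccl25 and Ccl27a and below for Cxcl12. Among those features 15.2% had groups that did not overlap, 5.71% with LDL above and 9.50% with LDL below. The median log2 fold change of the 8 genes was 0.065, beside -0.033 over the same features. With Cxcl10 added, 5 of 9 genes had an unadjusted p under 0.05 and 6 of 9 had groups that did not overlap, 5 with LDL above, counts that its way into the test helps to set. Over all 24177 features these shares were 7.66%, 14.8%, 5.71% with LDL above and 9.13% with LDL below. An exact two-sided permutation test of 3 arrays against 3 cannot go below p = 0.1, which these 6 genes, Cxcl10 included, reached. The members were chosen with earlier results of these data known, so the counts above do not test whether chemokine ligands stand out. Of 7 other chemokine ligands tested, 0 had an unadjusted p under 0.05 and 0 had groups that did not overlap.

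**Figure D1:**
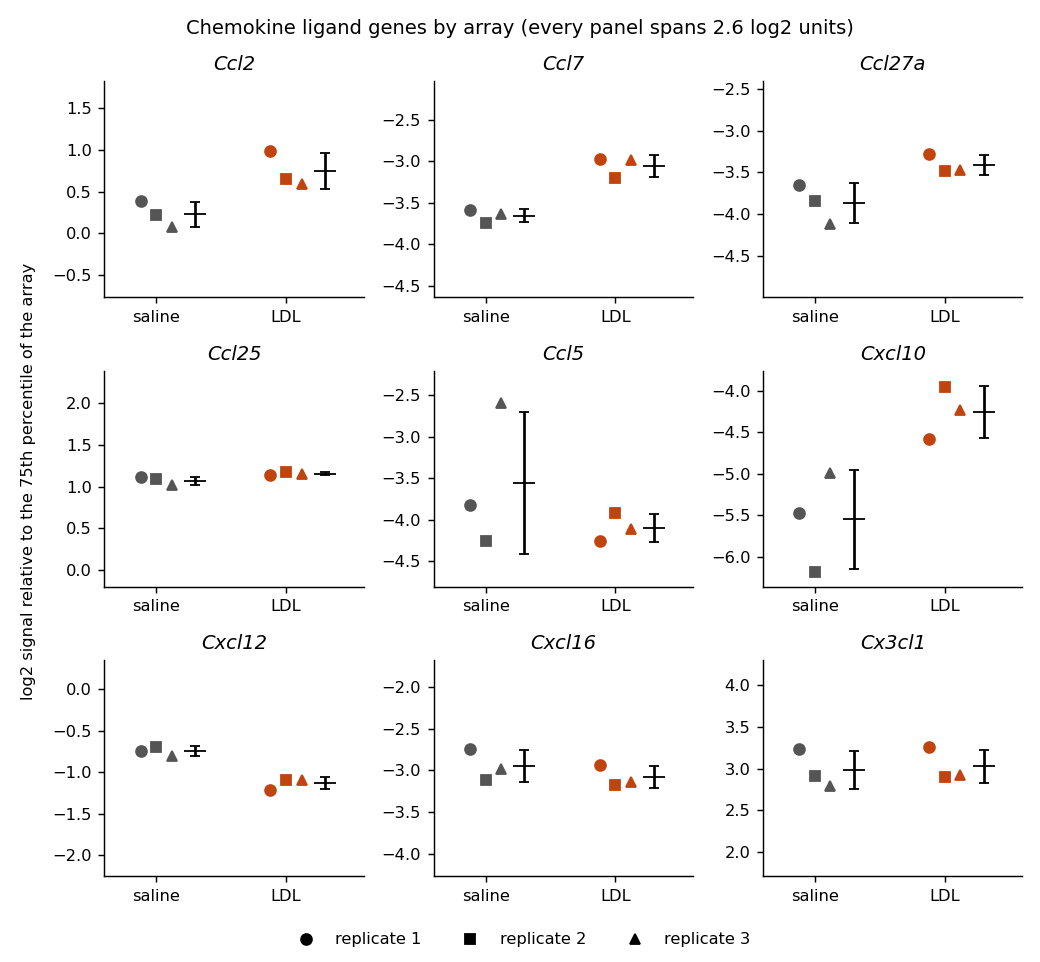
Log2 signal minus each array's 75th percentile (vertical axis, the same span in every panel) for the probe that stands for each of 9 chemokine genes, with 1 point per array, grey for saline and red-brown for LDL, and the mean ± SD (n = 3) beside them. The LDL points of Ccl2, Ccl7, Ccl27a, Ccl25 and Cxcl10 lie above all saline points, those of Cxcl12 lie below, and Ccl5 has 1 saline point at -2.60 far above the others.

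Ccl2, the monocyte attractant that acts through the receptor Ccr2, was measured by 10 spots of 1 probe on each array. The saline arrays had 0.38, 0.22 and 0.071 for replicates 1 to 3, and the LDL arrays 0.99, 0.65 and 0.59. Every LDL array was brighter than every saline array, and LDL replicate 1 was the brightest. The 10 spots gave processed signals of 954 to 1069 on saline replicate 1 and 1812 to 2068 on LDL replicate 1, and the SD of log2 signal among spots of 1 array ran from 0.048 to 0.084. The spread between spots was thus smaller than the SD between arrays, which was 0.16 with saline and 0.22 with LDL. The mean went from 0.22 ± 0.16 to 0.74 ± 0.22 (SD, n = 3 each). The log2 fold change was 0.52 (SE 0.14, 95% interval 0.18 to 0.86), a 1.43-fold difference that did not pass over all features (limma unadjusted p = 0.00911, adjusted p = 0.479). It was 0.52 within slide row 1, with 2 arrays per group, and 0.52 in slide row 2, with 1 per group.

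Ccl7, another monocyte attractant of the same receptor, lies next to Ccl2 in the gene table. Its single spot read -3.58, -3.74 and -3.63 with saline and -2.97, -3.20 and -2.99 with LDL. Between the groups lay a gap wider than the SD of either, since the lowest LDL array exceeded the highest saline array. The mean went from -3.65 ± 0.083 to -3.05 ± 0.13 (SD, n = 3 each), a log2 fold change of 0.60 (SE 0.11, 95% interval 0.34 to 0.86). Its unadjusted p of 0.000959 was the smallest of the 9 genes and ranked 102 among 24177 features, and the limma adjusted p was 0.224. The probe was dim, with processed signals of 54.5 to 76.0 with saline and 91.4 to 122.4 with LDL. The log2 fold change was 0.30 after normexp background correction and quantile normalization. Within slide rows 1 and 2 it was 0.58 and 0.64.

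Ccl27a encodes a CC chemokine best known from skin. The array carries 3 probes for it, of which 2 were detected on all arrays and 1 on none. The undetected one, with processed signals of 3.98 to 11.1, is listed under the same transcript as the brighter probe. Why these probes disagree was not tested. The brighter probe read -3.65, -3.84 and -4.12 with saline and -3.28, -3.48 and -3.48 with LDL. A dimmer one, listed under another transcript, read -4.15, -3.69 and -4.12 with saline and -3.40, -3.53 and -3.52 with LDL. On both probes every LDL array was brighter than every saline array. The log2 fold changes were 0.46 (SE 0.14, 95% interval 0.12 to 0.80) and 0.50 (SE 0.15, 95% interval 0.15 to 0.85). Neither passed, with a limma adjusted p of 0.518 for the brighter probe over all features and 0.548 for the dimmer one over all 32920 probes tested, of which 0.0881% passed. Without saline replicate 3 the brighter probe had 0.33, and with normexp 0.26. The gene table lists a gene Ccl27b, and how much of the signal comes from such a copy was not tested, since probe sequences were not used here.

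Ccl25, a ligand of the receptor Ccr9 that is best known from thymus and gut, also had groups that did not overlap, by a much smaller margin. Its brighter probe read 1.11, 1.08 and 1.02 with saline and 1.14, 1.17 and 1.15 with LDL. Within groups the SDs were 0.048 and 0.015. The log2 fold change was 0.084 (95% interval -0.13 to 0.29, limma adjusted p = 0.876), so a difference beyond 0.29 lay outside the interval. The dimmer probe overlapped between groups, with a log2 fold change of 0.10 (95% interval -0.38 to 0.58).

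Ccl5, an attractant of T cells and monocytes, overlapped between the groups. Its probe read -3.83, -4.25 and -2.60 with saline and -4.25, -3.92 and -4.12 with LDL. Saline replicate 3 stood apart from the other 5 arrays, which lay between -4.25 and -3.83. On that array the processed signal was 155.7, against 38.3 to 55.7 on the others, while the median pixel of the spot read 140, against 88 to 103. The log2 fold change was -0.54 (SE 0.39, 95% interval -1.47 to 0.40, limma adjusted p = 0.820). Without saline replicate 3 it was -0.056, and without saline replicate 2 it was -0.88. It was -0.046 within slide row 1 and -1.52 in slide row 2, which holds that array.

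**Figure D2:**
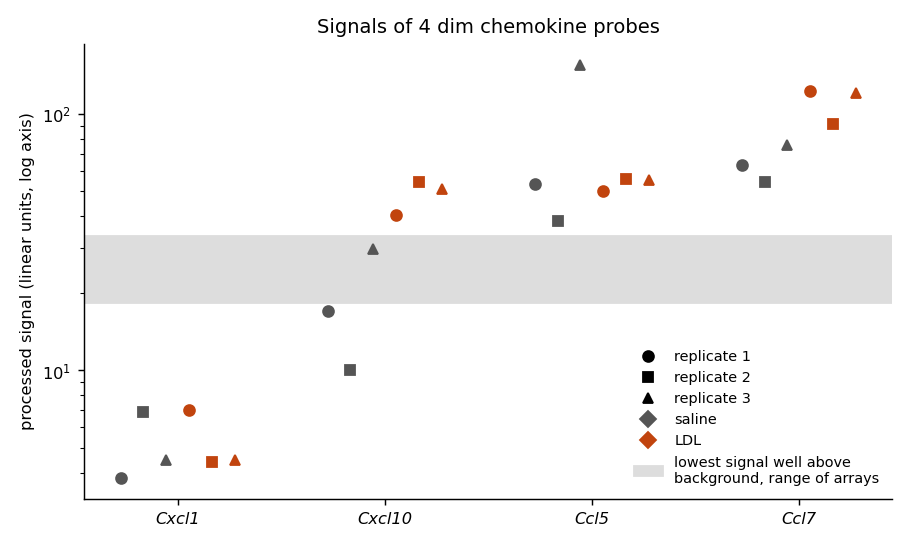
Processed signal in linear units on a log axis for the probes of Cxcl1, Cxcl10, Ccl5 and Ccl7 on each of the 6 arrays, with grey for saline and red-brown for LDL; the grey band spans, over the 6 arrays, the lowest signal called well above background, 18.4 to 33.4. Cxcl1 lies below the band on all arrays, 2 saline points of Cxcl10 lie below it, and 1 saline point of Ccl5 at 155.7 lies above the rest.

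Among the CXC ligands, Cxcl10, the attractant of activated T cells through Cxcr3, was measured by a probe close to background. It was detected on all 3 LDL arrays and on saline replicate 3 alone among the saline arrays. Its probe read -5.47, -6.18 and -4.99 with saline and -4.58, -3.95 and -4.23 with LDL, processed signals of 17.1, 10.1 and 29.6 against 40.2, 54.4 and 51.1. Every LDL array was above every saline array, but 2 saline values were not well above background. Set against those saline values, the log2 fold change was 1.29 (SE 0.31, 95% interval 0.56 to 2.02, limma adjusted p = 0.393). It was 0.41 with normexp and quantile normalization, 0.73 in the authors' values and 0.98 without saline replicate 2. It was 1.56 within slide row 1 and 0.76 in slide row 2. Cxcl10 is also an interferon-induced gene. Of 13 tested genes of the interferon list 0 passed in limma, where 0.132% of all features did. In that list 1 gene had an unadjusted p under 0.05, beside 7.66% of all features. The part of interferon in the Cxcl10 values was not tested.

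Cxcl12 is the ligand of Cxcr4 and of the scavenging receptor Ackr3. Its brighter probe read -0.74, -0.69 and -0.81 with saline and -1.22, -1.09 and -1.09 with LDL. It was the only chemokine probe with every LDL array below every saline array. The mean went from -0.75 ± 0.057 to -1.13 ± 0.073 (SD, n = 3 each), a log2 fold change of -0.39 (SE 0.095, 95% interval -0.61 to -0.16). It did not pass over all features (limma unadjusted p = 0.00479, adjusted p = 0.420). The second probe, listed under another transcript of the gene and dimmer, did not show this. It read -3.10, -3.94 and -4.26 with saline and -3.41, -3.64 and -3.72 with LDL, with overlapping groups and a log2 fold change of 0.17 (95% interval -0.50 to 0.85). The difference between the fold changes of both probes was -0.56, with p = 0.3 by a two-sided exact permutation test over arrays. With 3 arrays a group this test could not pass, so whether the probes differ in response was not settled. With the mean of both probes Cxcl12 had -0.11, and with normexp the brighter probe had -0.23. Within slide rows 1 and 2 the brighter probe had -0.44 and -0.29.

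Cxcl16, a membrane-bound ligand of Cxcr6 that is also known as a scavenger receptor for oxidized LDL, read -2.74, -3.12 and -2.98 with saline and -2.93, -3.17 and -3.13 with LDL. Saline and LDL arrays overlapped, and the log2 fold change was -0.13 (95% interval -0.45 to 0.18, limma adjusted p = 0.870). It was -0.030 without saline replicate 1 and -0.22 without saline replicate 2. Cxcl1, a neutrophil attractant, had no array with a signal well above background. Its processed signals were 3.80, 6.86 and 4.49 with saline and 7.03, 4.41 and 4.47 with LDL, and no fold change was drawn from them.

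Cx3cl1, or fractalkine, the membrane-bound ligand of Cx3cr1, was detected on all 6 arrays. Its probe read 3.24, 2.91 and 2.79 with saline and 3.25, 2.90 and 2.93 with LDL. Saline and LDL arrays overlapped almost fully, and replicate 1 was the brightest array in both. The log2 fold change was 0.046 (SE 0.16, 95% interval -0.33 to 0.42, limma adjusted p = 0.969). Its sign was negative without saline replicate 3, at -0.048, and equally when LDL replicate 1 was left out, at -0.068.

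**Figure D3:**
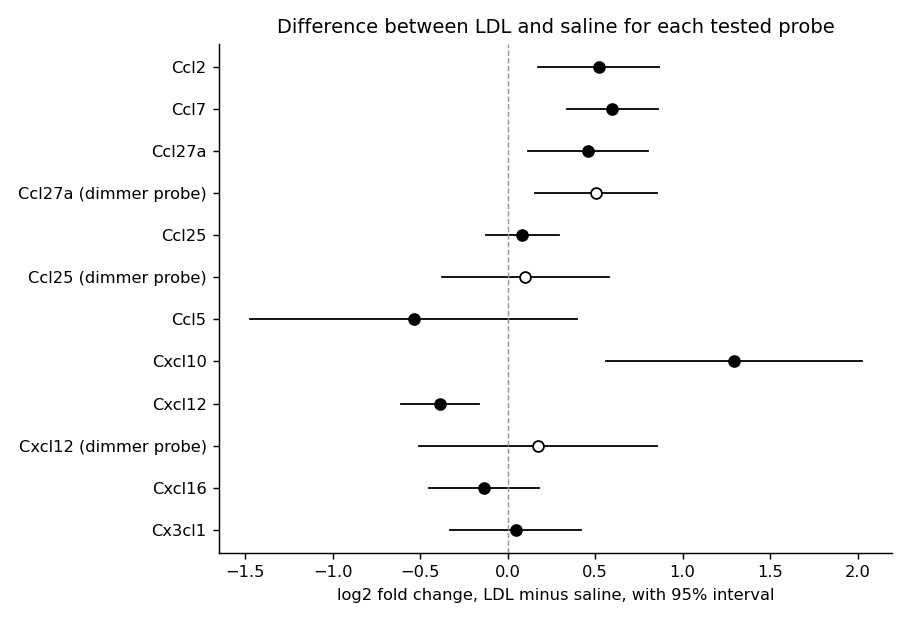
Log2 fold change of LDL minus saline with its 95% interval from limma for the 12 tested probes of 9 chemokine genes; filled points are the probe that stands for the gene and open points the dimmer probe. The intervals of both Ccl27a probes, Ccl2, Ccl7 and Cxcl10 lie above 0, that of the brighter Cxcl12 probe lies below 0, and the others include 0.

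Receptors of these ligands were set beside them, paired by known binding after the values had been seen. Ccr2, which binds Ccl2 and Ccl7, and Cxcr2, which binds Cxcl1, were detected on no array. Ccr10, which binds Ccl27a, was detected on 1 array, and Cxcr3, which binds Cxcl10, on 3. Detected on all 6 arrays were Ccr9, which binds Ccl25, with a log2 fold change of -0.063, Cxcr6, which binds Cxcl16, with -0.056, and Cx3cr1, which binds Cx3cl1, with -0.23 (limma adjusted p between 0.822 and 0.969 for the 3). Of 23 receptor genes on the list, 9 were tested, 0 passed in limma (0 had an unadjusted p under 0.05), and the median log2 fold change was -0.10.

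Both receptors of Cxcl12 were detected on all 6 arrays. Cxcr4, the signalling receptor, read -1.81, -2.12 and -2.30 with saline and -2.26, -2.37 and -2.29 with LDL, a log2 fold change of -0.23 (limma adjusted p = 0.782). Ackr3, which clears Cxcl12 from the surroundings of a cell, read -0.63, 0.44 and 0.27 with saline and -1.09, -0.56 and -0.23 with LDL, a log2 fold change of -0.65 (limma adjusted p = 0.728). Both overlapped between the groups. Ackr1, an atypical receptor that binds many chemokines, had -0.23 with LDL below saline on every array (limma adjusted p = 0.696), and Ccrl2, which presents chemerin, had 0.41 (limma adjusted p = 0.795).

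Of 27 other chemokine ligand genes on the list, 25 had a probe and 14 of these were detected on no array, among them Ccl3, Ccl4, Ccl20, Cxcl2 and Cxcl9. The 7 that were tested gave 0 passes in limma (0 with an unadjusted p under 0.05) and a median log2 fold change of -0.045. Pf4, or platelet factor 4, read -0.81, -2.42 and -2.32 with saline and -0.28, -1.12 and -1.20 with LDL, a log2 fold change of 0.98 with overlapping groups (limma adjusted p = 0.705). Saline replicate 1 was the array that overlapped, lying above LDL replicates 2 and 3. Cxcl14 had -0.28, Ccl17 0.22 and Ccl9 0.11 (limma adjusted p between 0.805 and 0.904).

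The genes that release chemokines or couple their receptors did not pass either, with 0 of 7 tested in limma (0 with an unadjusted p under 0.05) and a median log2 fold change of -0.047. Adam17, a protease that sheds Cx3cl1 and Cxcl16 from the cell surface, had -0.23 and Gnai2, a G protein subunit of chemokine receptors, -0.12. The receptor kinase Grk2 had -0.11 and the arrestin Arrb1 -0.047 (limma adjusted p between 0.809 and 0.942 for the 4). Gnai2 had LDL below saline on every array, as did 9.13% of all features. Adam10, another protease of the list, had 0.013 (limma adjusted p = 0.989).

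NF-kB genes had a median log2 fold change of 0.16 over 12 tested of 15, beside -0.031 over all features. Of the 12 genes 0 passed in limma, and 2 had an unadjusted p under 0.05, where 7.66% of all features did. Nfkb2 at 0.30, Ikbkg at 0.34 and Relb at 0.24 had every LDL array above every saline array, while Nfkbia, the inhibitor that NF-kB induces, had -0.28 with overlapping groups (limma adjusted p between 0.638 and 0.750 for the 4). In the interferon list the median over 13 tested genes of 18 was 0.11. Stat2, which carries the interferon signal to the nucleus, had -0.29 with LDL below saline on every array, and Ifnar2, a chain of the interferon receptor, 0.21 and Irf1 0.24 with LDL above saline on every array. Irf9, the partner of Stat2, had 0.21 with overlapping groups (limma adjusted p between 0.612 and 0.758 for the 4). Over all features, 5.71% had every LDL array above every saline array and 9.13% had every LDL array below. Whether NF-kB or interferon signalling differed between the groups was not tested.

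The genes whose values over the 6 arrays were most like those of Ccl2, by Pearson's r among 14912 named genes, were P2ry2 (r = 0.999), Cyb5r1 (r = 0.997) and Ctsl (r = 0.997). Most like Cxcl12 were Slc2a4 (r = 0.997), Plppr3 (r = 0.996) and Cd82 (r = 0.995). These are descriptions of 6 arrays in 2 treatment groups. The log2 fold changes were 1.66 for P2ry2, 0.93 for Cyb5r1 and 0.35 for Ctsl, and -0.87 for Slc2a4, -0.84 for Plppr3 and -0.58 for Cd82, and none passed (limma adjusted p between 0.111 and 0.520).

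**Figure D4:**
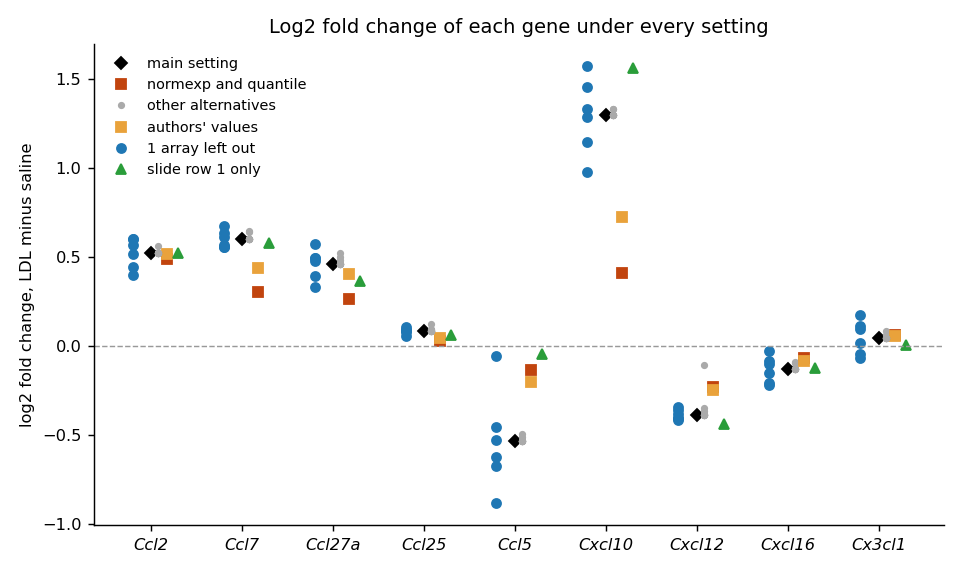
Log2 fold change of LDL minus saline (vertical axis) of 9 chemokine genes in the main setting (black diamonds) and 19 alternatives, of which Cxcl10 has 18: arrays left out (blue), normexp with quantile normalization (red squares), the authors' values (orange squares), slide row 1 alone (green triangles) and others (grey). Ccl2 stays between 0.40 and 0.60 and Ccl7 between 0.30 and 0.67, while Cxcl10 runs from 0.41 to 1.57 and Ccl5 from -0.88 to -0.046.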

How the data were processed

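Total RNA was measured on 6 one-colour Agilent arrays, with cRNA made from 100 ng per the labels' protocols. The intensity values on a linear scale were deposited as processed by Agilent Feature Extraction 10.7.3.1, which per the file headers subtracted background within each array. The authors also deposited log2 values, with R 3.4.4 and limma 3.34.9 in the submitters' processing notes and a normalization not given in the sources used here. These correlated with the scanner values of their own array at r between 0.987 and 0.993 (across spots, which are not independent). The highest r with another array was 0.984 to 0.987, below the own-array value each time but close to it.

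Log2 processed signal was centred on the 75th percentile of each array, without control or outlier spots. Spots of a probe were averaged, and a spot share of at least 50% called well above background made it detected. Probes lacking a usable value on any array were dropped. The files hold no gene symbol column, so names came from matching RefSeq accessions to a GRCm38.p6 gene table (28331 of 55681 probes). Of the probes, 32920 were tested, and each gene took its brightest probe by mean, which left 24177 features. LDL was compared with saline in limma 3.58.1 under R 4.3.3 (lmFit, eBayes, two-sided) with Benjamini-Hochberg adjustment, after a check on simulated arrays. Figures used matplotlib 3.10.9. The number of arrays limits the precision.

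Named were all 10 members, up to 4 tested genes of smallest p per pathway list, the 3 genes most like Ccl2 and Cxcl12, and Hmgcs1. Some genes that the rule covers are not reported here. Other names, receptors of the ligands among them, were chosen after their values were seen. Members and lists were chosen with earlier results of these data known. Marker lists of vascular and stromal, astrocyte, oligodendrocyte and neuronal cells were also measured. In that order 0 of 4, 1 of 7, 0 of 8 and 0 of 5 tested genes passed in limma, and 1, 2, 0 and 0 had an unadjusted p under 0.05. The 1 was Gfap, higher after LDL, while the other 6 astrocyte markers had negative log2 fold changes. The summed astrocyte signal was 45.0 to 51.0 with saline and 37.1 to 40.4 with LDL. The vascular and stromal sum was 14.5 to 15.1 with saline and 13.7 to 14.3 with LDL. Sums of the other marker lists overlapped between the groups, and the cause was not tested. Of 8 precursor markers 0 passed, with 2 at an unadjusted p under 0.05. Replicate numbers were not taken to pair the arrays in the main fit, and whether they do was not settled. Deviations of same-numbered arrays correlated at 0.24, -0.08 and 0.21 for replicates 1 to 3. Those of differently numbered arrays correlated at -0.27 to 0.079, below the values of replicates 1 and 3. Alternatives were other background corrections, scalings, filters and probe rules, the authors' values, a block for replicate number or for slide row, robust trended variances, each array left out and slide row 1 alone.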

Additional observations from a re-analysis of the deposited data

How the results depend on the processing

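No chemokine gene or probe passed in limma in any of the 20 settings run. At an unadjusted p under 0.05 were 4 or 5 of the tested genes, or 6 of 12 probes. Over all features this number ran from 864 of 24177 in slide row 1 alone to 3820 of 24177 without saline replicate 2. With every probe fitted it was 2320 of 32920. Except under the filter for all 6 arrays the chemokine counts include Cxcl10, whose way into the main test helps to set them. The lowest adjusted p of a chemokine gene was 0.116, for Cxcl10 in the authors' values. The other background filters, the fit of every probe, both blocks and trended variances leave the fold change of a gene's chosen probe unchanged. Averaging probes does so for genes with 1 tested probe, so in these settings a sign could not change. Dimmer probes on their own were not counted, and that of Cxcl12 had 0.17. Of 170 recomputed fold changes, those fixed in advance included, 168 kept their sign. The 2 exceptions were those of Cx3cl1, -0.048 when saline replicate 3 was left out and -0.068 when LDL replicate 1 was, and over all 6 omissions it ran from -0.068 to 0.17. The median of the chemokine genes stayed between 0.054 and 0.17. Over all features, the count of 4 higher was 9 after normexp, 8 under median scaling, 9 in the authors' values and 15 under robust trended variances. With all 6 arrays it was 0 in the fit of all 36659 features unfiltered and under a block for slide row. It was also 0 in row 1 of the slide alone, which was added after the data were seen. The count of 28 lower was 0 unfiltered, 15 under the slide row block and 0 in row 1. A replicate block gave 3 higher and 10 lower, left the fold changes as they were, and changed no call of a chemokine gene. Omitting single arrays gave 0 to 6 higher and 0 to 24 lower features. The higher count was 0 when saline 2, saline 3, LDL 1, LDL 2 or LDL 3 was omitted. Both counts were 0 in limma for saline 3, LDL 2 and LDL 3, although 1565, 1021 and 1390 features had an unadjusted p under 0.05. That number was 1807 unfiltered and 864 in row 1. Fits without an array have fewer samples, the unfiltered fit tests more features, and elsewhere the cause was not tested. Dim signals limit Cxcl10, Ccl5, Ccl7, Ccl27a and Cxcl16 and the dimmer probes of Cxcl12 and Ccl25, and Cxcl1 gave no value.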
